A study of Mus musculus with 6 samples.

Results

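CTBP2 signal around the mouse genes Cyld and Ikbkb was examined in macrophages grown from bone marrow, at 19 of the 62236 sites of a chromatin immunoprecipitation and sequencing table. Cyld encodes a deubiquitinase and Ikbkb a kinase of the NF-kB pathway. The sites were taken by position alone. Those with a centre between 89.35 and 89.55 Mb of chromosome 8 made up the Cyld window (9 sites), and those between 23.12 and 23.23 Mb of the same chromosome made up the Ikbkb window (10 sites). The 2 loci had been picked because a site in each had a large difference between LPS and vehicle in these libraries. Differences between LPS and vehicle at the 19 sites are therefore a description, and no p-value is given for a site. Where a site is named as called, this says only on which side of the threshold it fell in the fit over all sites.

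The libraries came from bone marrow-derived macrophages of male wildtype C57BL6/N mice aged 6 to 12 weeks, immunoprecipitated with an antibody to CTBP2. Cells of 3 libraries received LPS, a bacterial cell wall component, at 100 ng/ml for 3 h. Those of the other 3 received vehicle (PBS). The labels number the replicates within each treatment but do not say whether they came from separate mice or cultures. The SDs here therefore measure the spread between libraries, which may be technical. Neither input chromatin nor a control antibody was part of the comparison. The signal is a mean over all cells of a culture, so binding in more cells and more binding per cell cannot be told apart.

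NF-kB transcription factors are held in the cytoplasm by IkB proteins. The kinase IKK-beta, encoded by Ikbkb, is the catalytic subunit that phosphorylates IkB after toll-like receptors or the TNF receptor have been engaged, and marked IkB is degraded. CYLD works upstream of that kinase in the opposite direction, by removing ubiquitin chains from the adaptors that recruit and activate it. CTBP2 is a co-repressor that binds no DNA sequence of its own and is brought to chromatin by transcription factors and their complexes.

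Gene names in the table could not be used to find these sites. All 9 sites of the Cyld window carried the name Cyld, with 26 further sites elsewhere, whereas the 10 sites of the Ikbkb window were named Ank1 or Gpat4 and the 4 sites named Ikbkb lay outside it. The gene positions in the table matched the GRCm38.p6 gene table, while the sites are read here as GRCm39, a build that the submitters' processing notes list. Gene starts were therefore placed by the shift at which most neighbouring gene starts had a site centre within 500 bp. For Ikbkb 11 of 42 neighbouring starts did so at that shift, against 6 at the next best. For Cyld 6 of 13 did, against 4, and for Nod2, its neighbour, 7 of 13, against 4. Over 17157 genes placed in this way, 45.8% had a site within 500 bp of their placed start, against 6.23% with no shift. Distances below run from the placed start to the site centre along the direction of transcription and carry that tolerance.

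Gene extents were placed for a short chosen list only, with Snx20 at the shift of Cyld, and other genes were not searched for. Of that list 3 genes lay in the Cyld window. From low to high coordinates its sites fell in or beside Snx20, which encodes a sorting nexin, then in Nod2, which encodes a cytosolic sensor of bacterial muramyl dipeptide that signals to NF-kB, and last at Cyld. Of its 9 sites only the last lay within Cyld, at 0.147 kb past the start, while 3 lay within Nod2 and 2 within Snx20. After that site the next one in the table was 1694 kb further on, so no site covered the rest of Cyld. Gaps of that length or more made up 220 of the 62215 gaps between neighbouring sites (0.354%), whose median was 8.48 kb. Ikbkb was covered differently. It held 6 of the 10 sites of its window, all in the 13.4 kb after its start, with 1 further site 10.7 kb upstream, 1 just past its end and 2 within the neighbouring gene Polb, which encodes a DNA repair polymerase.

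The start regions are shown because a CTBP2 site covered the Cyld start and because the site with the largest gain of the Cyld window lay 3.00 kb past the Nod2 start. The 250 bases before each start are given 5′ to 3′ on the plus strand of GRCm38.p6 from RefSeq, for Cyld at chr8:88696778-88697027 and for Nod2 at chr8:88647097-88647346, with a match to the NF-kB motif in capitals. The promoter of Ikbkb was not used here.
Cyld: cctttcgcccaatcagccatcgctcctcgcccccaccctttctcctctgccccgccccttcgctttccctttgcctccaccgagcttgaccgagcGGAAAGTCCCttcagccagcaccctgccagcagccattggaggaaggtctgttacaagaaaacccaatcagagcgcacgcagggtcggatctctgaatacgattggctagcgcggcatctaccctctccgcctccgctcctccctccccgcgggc
Nod2: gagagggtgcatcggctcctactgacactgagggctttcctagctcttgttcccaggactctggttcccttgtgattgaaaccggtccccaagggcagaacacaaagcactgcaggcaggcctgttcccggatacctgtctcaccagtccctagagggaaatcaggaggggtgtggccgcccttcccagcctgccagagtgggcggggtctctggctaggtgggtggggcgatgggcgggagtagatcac
Both strands were searched for the NF-kB motif, for the AP-1 motif TGANTCA and for the PU.1 motif GAGGAAGT. The Cyld sequence held 1 NF-kB match, read on the minus strand and beginning 155 bases before the start, and no other match overlapped it. The Nod2 sequence held none of the 3. It lies outside the gained site, whose own sequence was not searched. Among 32851 promoters of this length 3.90% held an NF-kB match, 6.75% an AP-1 match and 2.44% a PU.1 match. The Cyld sequence had 62.8% G and C and 18 CpG dinucleotides, and the Nod2 sequence 61.2% and 7, against medians of 52.4% and 6.

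The values below are the deposited signal of each library divided by that library's median over all sites and multiplied by 48.8, the mean of the 6 medians. A site was called higher or lower at an adjusted p under 0.05 in limma, a linear model fitted to log2(scaled value + 1) over all 62236 sites with Benjamini-Hochberg adjustment. Each SE is from this fit, which moves the variance of a site toward a trend over all sites. An SE is therefore not the spread of a site's own libraries alone. Over all sites 16.1% were called higher and 13.5% lower, so 54.4% of calls were higher. This majority depended on the scaling, with 9239 higher and 9637 lower after quantile normalisation (48.9% higher) and 50.6% higher after scaling by column totals. On the deposited values without scaling, 1178 sites were called higher and 30 lower, and 97.5% of calls were higher. If the smallest step of a library's values is 1 read, the sites held between 3243258 and 4553179 reads in a library, and the median site held 39 to 55.

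CTBP2 signal was called higher after LPS at a few sites of each window, and most of the others were not called. A site without a call need not be equal between treatments. The log2 fold was above 0 at 16 of the 19 sites, against 30191 of all 62236. In the Cyld window 3 of 9 sites were called higher and 1 lower. In the Ikbkb window 4 of 10 were called higher and the other 6 were not called. Together 8 of 19 sites were called in either direction, against 29.6% of all sites, and 3 had a log2 fold of at least 1.5, against 1.97%. Nothing is read from these counts, because the loci were chosen on this contrast. Without scaling, those 3 were the only sites of the 19 still called. The median log2 fold was 0.19 in the Cyld window and 0.47 in the Ikbkb window, against -0.02 over all sites. The lowest LPS library exceeded the highest vehicle library at 11 of the 19 sites, and the reverse held at 1, against 21.6% and 20.6% of all sites.

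**Figure D1:**
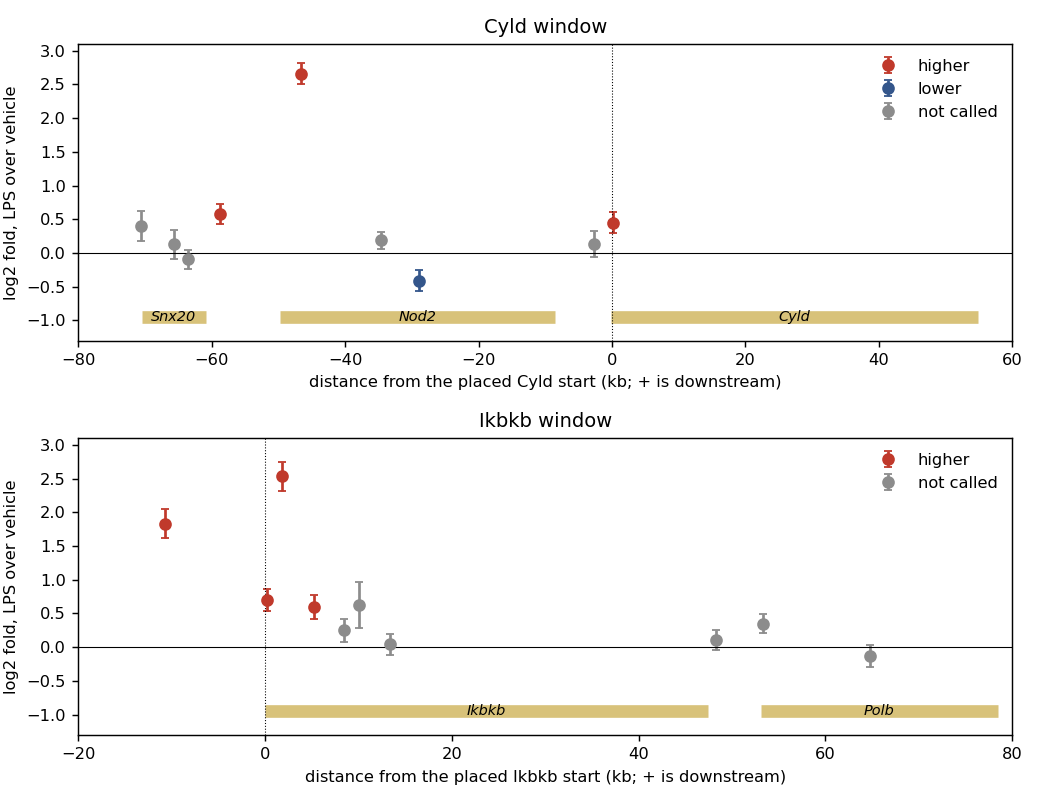
Log2 fold of CTBP2 signal (LPS over vehicle, on the log2(scaled value + 1) scale, with the limma standard error as bars) against the distance in kb from the placed start of Cyld (upper panel, 9 sites) or Ikbkb (lower panel, 10 sites); gold bars are the placed gene extents and colours give the call. The highest point of the upper panel (2.66) sits in Nod2, 46.7 kb before Cyld, while the 2 highest of the lower panel (2.53 and 1.83) flank the Ikbkb start.

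The strongest gain of the Cyld window was at chromosome 8, 89376544 to 89377544. It lay within Nod2, 3.00 kb after where that gene starts, and 46.7 kb before Cyld, although the table names it Cyld. Its signal was 256, 263 and 273 in LPS replicates 1, 2 and 3, and 45.2, 31.0 and 48.8 in vehicle replicates 1, 2 and 3. Every LPS library lay far above every vehicle library, and libraries of a treatment lay close together. The means were 264 ± 8.31 in LPS and 41.7 ± 9.39 in vehicle (SD, n = 3 each), a ratio of 6.34 and a log2 fold of 2.66 (SE 0.16). On the reading of 1 step as 1 read, these values rest on 226 to 297 reads in LPS and 35 to 39 in vehicle. In vehicle the site was at the 40.6th percentile of all sites and ranked 7th of the 9 in its window, and in LPS it was at the 99.5th percentile and ranked 1st.

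The other sites within Nod2 did not share that gain. At 89388674 to 89389674, 15.1 kb past the Nod2 start, the signal was 211, 229 and 211 in LPS and 208, 185 and 179 in vehicle. This was the strongest vehicle site of the window, at the 98.3rd percentile of all sites, and its LPS libraries lay only just above its vehicle libraries (log2 fold 0.19, SE 0.13, not called). At 89394264 to 89395264, 20.7 kb past the Nod2 start, the signal was 69.2, 67.4 and 64.7 in LPS and 89.3, 84.3 and 95.1 in vehicle. Here every LPS library lay below every vehicle library, with a log2 fold of -0.41 (SE 0.16). It was the only site of the 19 called lower, and that call was lost without any 1 of the 6 libraries, where the log2 fold was -0.45 to -0.37.

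At the Cyld start itself the gain was small. The site at 89423375 to 89424375 had 129, 132 and 125 in LPS and 73.8, 107 and 105 in vehicle. The LPS libraries were tightly grouped and lay above the vehicle libraries, of which replicate 1 was well below the other two. The means were 129 ± 3.74 in LPS and 95.4 ± 18.7 in vehicle (SD, n = 3 each), and the log2 fold was 0.45 (SE 0.15). It was called higher with all libraries, but not without LPS replicate 1 (0.45), LPS replicate 2 (0.43) or vehicle replicate 1 (0.28). Among 9177 placed genes with a site within 1 kb of the start, its log2 fold was above that of 91.9% of start sites and its vehicle level above 59.4%. The site before it, 2.63 kb upstream of Cyld, had 44.3, 68.3 and 51.6 in LPS and 42.8, 56.8 and 48.8 in vehicle, and the treatments overlapped (log2 fold 0.13, SE 0.19, not called).

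Of the 4 sites on the Snx20 side of Nod2, 1 was called. At 89364429 to 89365429, between Snx20 and Nod2, the signal was 135, 145 and 130 in LPS and 84.5, 97.6 and 91.3 in vehicle, with no overlap and a log2 fold of 0.58 (SE 0.14, called higher). The 2 sites in Snx20 and the site beside it were not called. Their log2 folds were -0.10 (SE 0.15), 0.13 (SE 0.22) and 0.40 (SE 0.23), and their mean levels ran from 36.7 to 111 in LPS and from 27.9 to 118 in vehicle. Ordered by LPS level, the gained Nod2 site came first and the one 15.1 kb into Nod2 second, and neither overlapped with the site next below it. Ordered by vehicle level, the site 15.1 kb into Nod2 came first and a Snx20 site second, again without overlap, while the Cyld start site came next and overlapped with the site below it.

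**Figure D2:**
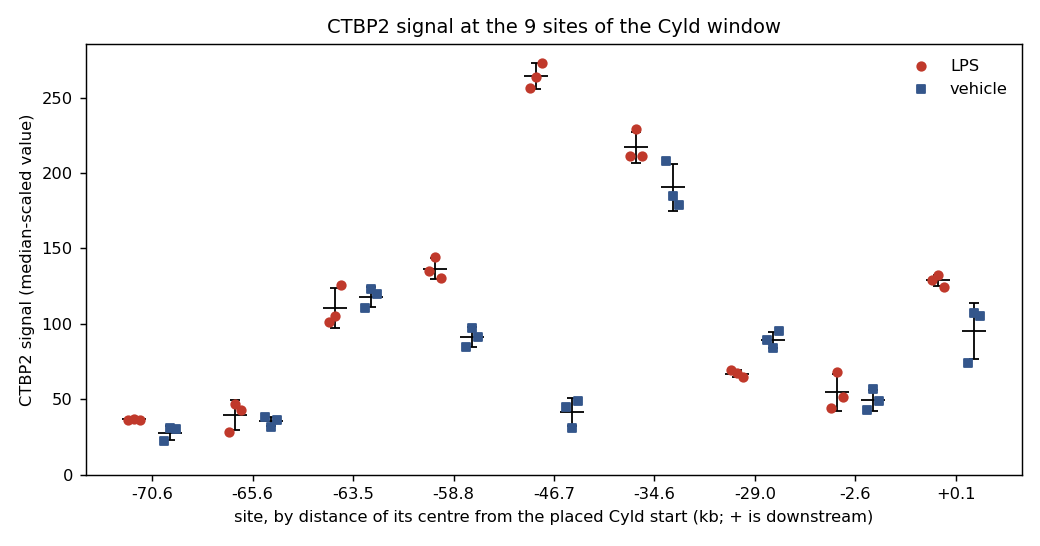
CTBP2 signal (median-scaled value, linear axis from 0) of each library at the 9 sites of the Cyld window, ordered by distance in kb from the placed Cyld start. Red circles are the 3 LPS libraries, blue squares the 3 vehicle libraries, black bars the mean and SD; at -46.7 kb the LPS libraries stand between 256 and 273 and the vehicle libraries at 31.0 to 48.8.

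In the Ikbkb window the gain was at the gene itself. The site at 23194430 to 23195430 of chromosome 8, which the table names Gpat4 and which lay 1.81 kb into Ikbkb, had 93.1, 96.7 and 94.8 in LPS replicates 1, 2 and 3, and 10.7, 18.6 and 18.8 in vehicle replicates 1, 2 and 3. Its signal was low in every vehicle library and moderately strong in every LPS library. Without input chromatin or a control antibody, weak binding and none cannot be told apart in vehicle. The means were 94.8 ± 1.82 in LPS and 16.0 ± 4.60 in vehicle (SD, n = 3 each), a ratio of 5.91 and a log2 fold of 2.53 (SE 0.21). The vehicle values rest on only 9 to 21 reads by the step, against 82 to 109 in LPS, so the vehicle level is the less certain of the pair. Its vehicle level was at the 1.33rd percentile of all sites and its LPS level at the 82.5th.

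A site upstream of Ikbkb also had a large gain. At 23206919 to 23207919, 10.7 kb before the Ikbkb start, the signal was 61.3, 63.9 and 85.4 in LPS and 22.6, 19.5 and 15.0 in vehicle. The treatments were again far apart. The means were 70.2 ± 13.2 in LPS and 19.0 ± 3.82 in vehicle (SD, n = 3 each), and the log2 fold was 1.83 (SE 0.22). Its vehicle level was at the 3.49th percentile. These 2 Ikbkb sites and the Nod2 site were the only 3 of the 19 with an FDR under 0.05 in the authors' deposited table, whose log2 folds for them were 2.06, 1.59 and 2.12. That table has 4.01% of all sites higher and 0.37% lower at this FDR. Its log2 folds are not the difference of its log2 mean signals, which were 8.06 in LPS and 5.43 in vehicle at the Nod2 site. They are therefore not the same measure as the log2 folds given here.

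The Ikbkb start site changed less than its neighbours on either side. At 23196021 to 23197021, with its centre 0.218 kb from the placed start, the signal was 93.1, 110 and 108 in LPS and 71.4, 62.1 and 57.5 in vehicle. The treatments did not overlap, and the log2 fold was 0.70 (SE 0.16, called higher). Among the start sites of 9177 genes its log2 fold was above 96.3% and its vehicle level above 24.7%. Although the start site and the site 1.81 kb into the gene were 1.59 kb apart, their vehicle means were 63.7 and 16.0 while their LPS means were 104 and 94.8, so their ranges overlapped in LPS only.

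Of the 4 sites further into Ikbkb 1 was called. At 23191044 to 23192044, 5.20 kb past the start, the signal was 74.9, 69.2 and 90.1 in LPS and 64.3, 46.1 and 45.0 in vehicle, with a log2 fold of 0.59 (SE 0.18). This site was called higher, but not without LPS replicate 3 (0.49) or vehicle replicate 2 (0.52). The sites at 8.50, 10.1 and 13.4 kb had log2 folds of 0.25 (SE 0.17), 0.62 (SE 0.34) and 0.04 (SE 0.16), and none was called. Of these the one at 10.1 kb was the weakest of the window in LPS (28.0 ± 7.40, with 18.1 ± 5.80 in vehicle, SD, n = 3 each). The site just past the Ikbkb end and both Polb sites had log2 folds of 0.10 (SE 0.15), 0.35 (SE 0.14) and -0.13 (SE 0.16) and were not called, although they were among the strongest 4 of the window in vehicle with 115, 103 and 80.4.

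**Figure D3:**
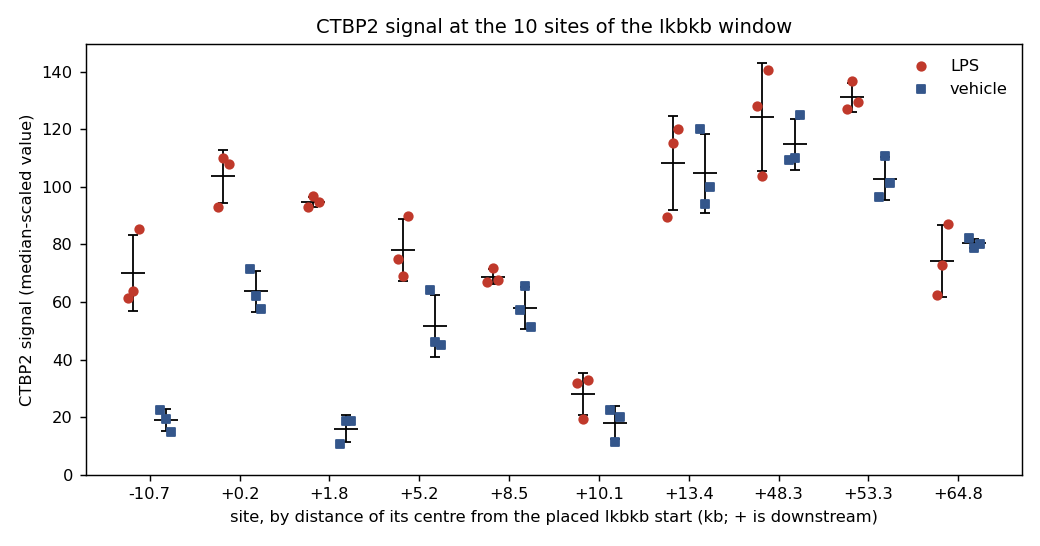
CTBP2 signal (median-scaled value, linear axis from 0) of each library at the 10 sites of the Ikbkb window, ordered by distance in kb from the placed Ikbkb start. Red circles are the 3 LPS libraries, blue squares the 3 vehicle libraries, black bars the mean and SD; at -10.7 and +1.8 kb all vehicle libraries lie under 23 and all LPS libraries over 61, and from +13.4 kb onwards most treatments overlap.

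Ordered by level within the Ikbkb window, the site 1.81 kb into the gene was 5th of 10 in LPS and 10th in vehicle. In LPS it overlapped with the start site above it but not with the site below it. In vehicle it overlapped with both sites above it, those 10.1 kb into the gene and 10.7 kb upstream. The site 10.7 kb upstream was 8th of 10 in both treatments. In LPS it overlapped with the sites next to it in the order, and the site 10.1 kb into the gene stood alone in last place.

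Summed over its sites, the Cyld window had 1011, 1095 and 1061 in LPS and 715, 748 and 754 in vehicle. The site in Nod2 supplied 25.1% ± 0.87 of that sum in LPS and 5.65% ± 1.30 in vehicle (SD, n = 3 each). Without it the sums were 791 ± 38.4 in LPS and 697 ± 24.4 in vehicle (SD, n = 3 each), and the log2 ratio was 0.18 in place of 0.51. The Ikbkb window had 828, 860 and 956 in LPS and 657, 617 and 614 in vehicle, a log2 ratio of 0.48. Its strongest gain supplied 10.8% ± 0.77 in LPS and 2.57% ± 0.81 in vehicle (SD, n = 3 each), and without it the log2 ratio was 0.36. In both windows every LPS sum lay above every vehicle sum, with that site and without it.

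**Figure D4:**
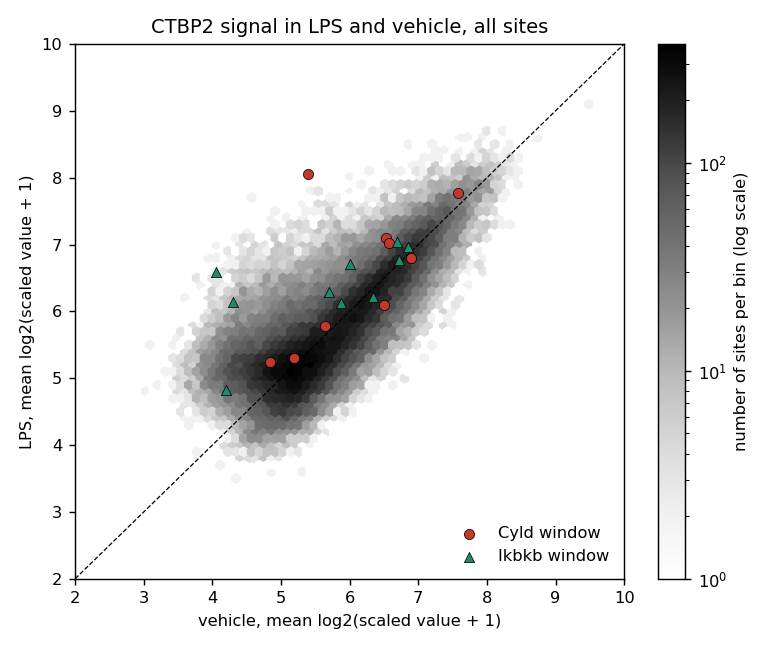
Mean log2(scaled value + 1) in LPS (vertical axis) against vehicle (horizontal axis) for all sites as a density (grey, log colour scale; 13 sites lie outside the axes), with the 9 Cyld window sites as red circles and the 10 Ikbkb window sites as green triangles. The dashed line marks equal levels; the Nod2 site and 2 Ikbkb sites stand well above it and most others lie near it.

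The values around the window edges were as follows. On the Cyld side the sites just inside the edges had log2 folds of 0.40 (SE 0.23) and 0.45 (SE 0.15), and those just outside had -0.05 (SE 0.25) and -0.96 (SE 0.17), the last of them 1694 kb away. Just inside the Ikbkb edges the log2 folds were -0.13 (SE 0.16) and 1.83 (SE 0.22). Just outside they were 0.12 (SE 0.15) and 1.07 (SE 0.24), so the upper edge of that window separated gained sites that were 25.5 kb apart.

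Other genes of the NF-kB pathway were taken from a list of 62 genes in 6 roles, of which 4 (Tab3, Nfkb1, Tlr4 and Cd14) could not be placed and are not counted. Nod2, whose higher sites lie in the Cyld window, was left out of the counts with Cyld and Ikbkb. Of the other 54 genes with a site within 50 kb of the placed start, 43 had at least 1 site called higher and 22 at least 1 called lower, against 45.7% and 41.9% of all placed genes with such a site. On unscaled values 14 of these 54 had a higher site and none a lower one, against 8.72% and 0.22% of all placed genes. Within 10 kb 32 of 54 had a higher site and 5 a lower one, against 20.1% and 15% of 12147 genes. At the start itself (within 1 kb), 15 of 42 had a higher site and 1 a lower one, against 8.86% and 4.34% of all genes, and the median log2 fold of the nearest site was 0.25 against 0.01. The list was written with earlier results of these libraries known, and nothing particular to it is claimed.

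By role, counts are given within 10 kb, where 20.1% of all genes had a higher site and 15% a lower one. Each log2 fold printed for a gene is the largest change among its called sites of that direction within 10 kb. Such a site need not lie at the gene start, and other sites of the gene may not be called. Among the other genes grouped as kinases, a label too narrow for Ikbkg, Tab1 and Tab2, 5 of 9 had a higher site and 2 a lower one. Within 50 kb 6 and 5 of 9 did, against 45.7% and 41.9% of all placed genes. Within 1 kb 1 and 1 of 7 did, against 8.86% and 4.34%. Higher were sites at Tab2, an adaptor of the kinase TAK1 (log2 fold 1.84, 8.57 kb past the start), and at Tbk1, a kinase related to IKK (1.27 at its start). Ikbke, another IKK-related kinase, had one 5.93 kb past its start (0.91). The Tab2 start site was not called (0.35). Tbk1 also had a lower site 4.56 kb upstream (-1.18), and Tab1, a partner of TAK1, one at its start (-0.49). Of the other deubiquitinases and their partners, 4 of 8 had a higher site within 10 kb and 1 a lower one, the lower share (12.5%) being close to that of all genes. The 4 were Tnip1, whose product binds A20 (1.69), Tnfaip3, which encodes the ubiquitin-editing enzyme A20 (1.61), Spata2, whose product links CYLD to the linear ubiquitin ligase (0.90), and the deubiquitinase gene Otud7b (0.62). The lower one was Tnip2 (-0.50).

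All 6 genes grouped here as IkB inhibitors had a higher site within 10 kb. The largest log2 folds were 1.62 at Nfkbiz, 1.61 at Nfkbia, 1.13 at Bcl3 and 0.84 at Nfkbie, while Nfkbid also had a lower site (-0.67). The group takes in the wider IkB family, and its name does not say that each member holds NF-kB in the cytoplasm. All 4 placed genes of Rel subunits, the DNA-binding proteins of the pathway, also had a higher site. Their log2 folds were 1.43 for Nfkb2, 0.78 for Relb, 0.73 for Rel and 0.38 for Rela. Of the 12 genes grouped as ubiquitin ligases, a label too narrow for Traf1 and Ube2n, 6 had a higher site and none had a lower one. The largest log2 folds were at Birc3 (1.88), Traf2 (1.79), Birc2 (1.64) and Traf1 (1.53). Receptors and adaptors besides Nod2 had a higher site in 7 of 15. The largest log2 folds there were 3.24 at the co-stimulatory receptor gene Cd40, 1.18 at Ripk2, which encodes the kinase that NOD2 signals through, and 1.10 at Ticam2. One gene of that role, Irak2, had a lower site (-0.63).

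**Figure D5:**
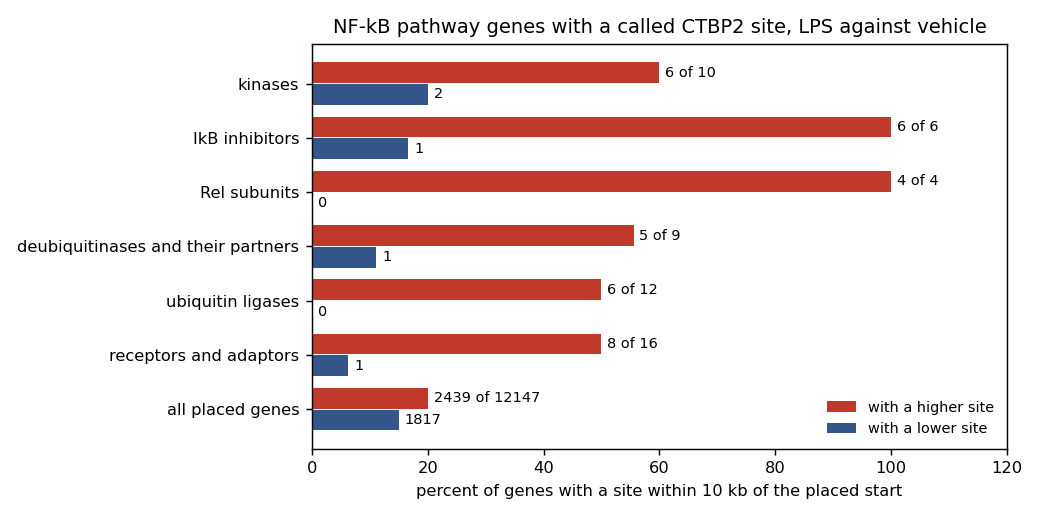
Percent of genes with at least 1 CTBP2 site called higher (red) or lower (blue) in LPS against vehicle, among genes with a site within 10 kb of the placed start, by role in the NF-kB pathway (Cyld, Ikbkb and Nod2 included), with all placed genes at the bottom. Numbers beside the bars are genes; red bars run from 50% to 100% in the 6 roles and stand at 20.1% over all genes.

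Marker genes of cell types were read only for whether a site lay within 10 kb, since bound chromatin does not measure expression. All 6 placed macrophage markers had one, as did 3 of 6 neutrophil, 3 of 3 lymphocyte and 1 of 3 stromal or erythroid markers, against 70.8% of all placed genes. Of the 18 sites at macrophage markers 1 was called higher and 4 lower, against 16.1% and 13.5% of all sites, with a median level of 70.6 in LPS and 104 in vehicle. Of the 9 at neutrophil markers 1 was called higher, of the 4 at lymphocyte markers 1 was called higher and 1 lower, and none of the 3 at stromal or erythroid markers was called. Median levels in LPS and vehicle were 62.2 and 47.8 at neutrophil, 74.4 and 83.0 at lymphocyte, and 69.6 and 83.3 at stromal or erythroid markers. The part of these cell types in the results above was not tested.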

How the data were processed

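CTBP2 ChIP-seq was analysed in 3 LPS and 3 vehicle libraries from 1 table of 62236 sites. Its library columns hold a normalised signal that the authors deposited, and their scaling is not stated in the labels. The authors also deposited log2 concentrations, which equal the log2 mean of that signal within 0.000377, log2 folds, p-values and FDR values. Per the submitters' processing notes the tools included BWA 0.7.17, Picard 3.2.0, SAMtools 1.9, deepTools 3.5.1, MACS3 3.0.0a5 and DiffBind 3.16, with builds mm39, GRCm39 and mm10. The labels do not say if replicates were pooled for peak calling.

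Here each column was scaled by its median and a linear model with trend and robust options (limma 3.58.1 under R 4.3.3) was fitted to log2(value + 1), with no covariates and no filter. Such folds understate changes of low sites. The limma fit was tested on simulated data with known changes. Variances were shuffled among sites there, so the relation of variance to level that the trend option models was not tested. Gene starts came from a RefSeq table of GRCm38.p6 and from the deposited table, and were placed from other starts within 2 Mb, with offsets tried every 100 bp as far as 1.2 Mb and at least 4 hits needed. Sites described in full were, by rule, the site nearest each start, the 4 largest and 2 smallest log2 folds and the 2 highest levels of each window. Values of the other sites were added after being seen. Pathway genes were named where a called site lay within 10 kb, up to 4 per role and direction. The members and lists were chosen with earlier results of these data known. The planned count models were not run, since the table holds normalised values and its reads are inferred only from the step.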

Additional observations from a re-analysis of the deposited data

How the results depend on the processing

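The Nod2 site and the Ikbkb sites 1.81 kb past and 10.7 kb before the start kept their call under every alternative run on site folds, including without each library. On the deposited values without scaling, 1178 sites were called higher and 30 lower over all sites, 1 and 0 in the Cyld window, and 2 in the Ikbkb window (higher). The log2 ratio of the Cyld sum was then 0.58. Counts of pathway genes in this section include Cyld, Ikbkb and Nod2. Without scaling, 17 of the 57 with a site within 50 kb had a higher site and 0 a lower one, against 8.72% and 0.22% of all placed genes. The number of Cyld window sites called lower was 0 with quantile normalisation and without limma's trend and robust options. It was also 0 at an adjusted p under 0.01 and without each library (range 0 to 0). A limit of 25 kb from the Cyld start leaves out the lower site, which lies 29.0 kb upstream, so its 0 tests nothing. That limit keeps only the sites 2.63 kb upstream of and 0.147 kb past the start, of which the latter was called higher. At an adjusted p under 0.01, 4699 sites were lower and 15 of the 57 pathway genes had a lower site within 50 kb. The share of all genes at that threshold was not taken. Pathway genes with a lower site numbered 5 of 57 at a reach of 10 kb, 39 of 58 at 100 kb and 1 of 44 at 1 kb. The shares of all placed genes were 15%, 59.4% and 4.34%. Those with a higher site numbered 17 of 44 at 1 kb, a reach chosen after seeing the data, against 8.86% of all placed genes. The cause of these shifts with scaling was not tested.

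Across the fits that leave out 1 library each, 3 uncalled sites changed sign. The log2 fold ran from -0.013 to 0.34 and from -0.040 to 0.27 at the Cyld window sites 65.6 and 2.63 kb upstream, both below 0 without LPS replicate 2, and from -0.035 to 0.17 at the Ikbkb site 13.4 kb into the gene, below 0 without LPS replicate 2, LPS replicate 3 or vehicle replicate 2. The Cyld start site and the lower Nod2 site also lost their call without limma's trend and robust options. Deviations of same-numbered libraries correlated at 0.11, 0.04 and 0.21, and those of differently numbered libraries at -0.21 to 0.15. These values do not settle whether the replicate numbers pair the libraries, and the main fit did not pair them. With a replicate block 11691 sites were called higher and 10397 lower over all sites. The Polb site 53.3 kb past the Ikbkb start was then called higher, and that window had 5 such sites. Low read numbers limit the vehicle values of the Ikbkb sites 1.81 and 10.1 kb past and 10.7 kb before the start. The count model alternatives were not run.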
